A study of Homo sapiens with 92 samples.

Results

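The numbered zinc finger genes of human chromosome 19 were described from SLAM-seq libraries that measure newly made RNA. The members are all genes on chromosome 19 whose symbol is ZNF, a number and at most 1 further letter, which gave 234 genes of the 48907 genes analysed. Of them, 222 are annotated as protein coding in RefSeq, 7 as transcribed pseudogenes and 5 as pseudogenes. Their median gene span was 24.96 kb, against 37.4 kb over all genes tested in the mitosis series. Another 284 genes with a ZNF number lie on other chromosomes, and 2292 further genes share chromosome 19 with the members.

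Most of these genes encode proteins with a C-terminal array of C2H2 zinc fingers, each finger reading a few bases of DNA, and many carry a KRAB domain at the other end. The KRAB domain binds KAP1 (TRIM28), which brings histone methyltransferases, HP1 proteins and histone deacetylases to the bound DNA, and many such proteins silence transposable elements. The genes arose by tandem duplication and lie in clusters, so neighbours are often close in sequence.

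The study asked what NIPBL, the factor that loads cohesin and drives loop extrusion, does for transcription after mitosis. All libraries come from cells in which NIPBL carries a degron, labelled mGreenLantern-P2A-FKBP12(F36V)-NIPBL, so that the compound dTAGV-1, which recruits the VHL ubiquitin ligase, can remove the protein, and DMSO is the vehicle; these RNA counts do not measure the protein. RPE-1 is a retinal pigment epithelial line immortalised with hTERT, and all of its libraries come from 1 clone, NIPBL-D7. These cells were synchronised by a double thymidine block, arrested with nocodazole and collected by shake-off. In the mitosis series dTAGV-1 or DMSO was added with nocodazole for 120 min and kept on after release, and cells were taken at 0 min (4 dTAGV-1 and 3 DMSO libraries), 30 min (3 and 3), 60 min (4 and 4), 90 min (4 and 4), 120 min (3 and 4), and 4, 6 and 8 h (2 and 2 each). These libraries were labelled with 4-thiouridine (4sU) for the last 15 min. Further libraries at 120 min were labelled for 120 min (3 and 3). In the release series the labels give drug times of 30, 60, 90 and 120 min and the same synchronisation, with 3 dTAGV-1 and 3 DMSO libraries at each time and 3 and 3 with 120 min of 4sU. Cardiomyocytes and neurons derived from WTC11 iNgn2 induced pluripotent stem cells received dTAGV-1 or DMSO for 4 h and 4sU for 120 min (2 and 2 libraries each). Nothing in the labels says whether replicates are separate cultures, so p-values measure the spread between these libraries, which may be technical.

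The 92 libraries held 0.419 to 35.4 M converted reads (reads with T-to-C conversions, which mark 4sU) among 10.7 to 114 M reads in all, and the members took 0.257% to 1.08% of the converted reads. Counts were scaled to reads per M (CPM) with TMM factors, and a change is called where the adjusted p of edgeR's quasi-likelihood test is under 0.05. The labels name hTERT RPE-1 as the cell line of the differentiated cells too, but TNNT2, a cardiac troponin, had 657 to 775 CPM of all reads in cardiomyocytes, and MAP2, a neuronal microtubule protein, 1071 to 1196 CPM in neurons. TUBB3, another neuronal marker, had only 0.580 to 0.885 CPM in neurons, and LIN28A, a stem cell marker, 121 to 158 CPM in cardiomyocytes and 205 to 233 CPM in neurons. Other stem cell markers were far lower. POU5F1 had 0.117 to 0.464 CPM in cardiomyocytes and 0.259 to 0.410 CPM in neurons, and NANOG 0.102 to 0.186 and 0.129 to 0.335 CPM. L1TD1, the highest of the others checked, had 6.41 to 9.12 CPM in cardiomyocytes and 4.54 to 8.60 CPM in neurons. CDK1, a mitotic kinase gene, averaged 346, 334, 133, 33.1 and 24.2 CPM of all reads in DMSO at 0, 30, 60, 90 and 120 min of the mitosis series, but 9.93 CPM at 30 min and 7.61 CPM at 120 min of the release series. The 2 series therefore do not start from the same RNA, and their times are not matched below. One library, replicate 3 of DMSO at 120 min after mitosis, was unlike its group: its 10 leading genes took 13.5% of the converted reads, against 3.44% to 3.75% in the other replicates. Without it the members' calls at 120 min were 24 higher and 20 lower (26 and 20 with it).

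Placed along the chromosome, the members form 21 positional clusters when a gap over 500 kb starts a new one, and 10 clusters hold at least 5 members (220 members in all). The results turn on 3 of them. The pericentromeric cluster (chr19:19668796-24129961 in hg38, ZNF101 to ZNF254) holds 40 members. The ZNF175 to ZNF331 cluster (chr19:51571298-53580269) holds 37 members. The subtelomeric cluster (chr19:57191500-58481230, ZNF264 to ZNF446) holds 39 members.

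Promoters are shown for members whose time course is described below, picked after their values were seen. ZNF100, ZNF486, ZNF85 and ZNF431, which fell after mitosis, have closely related promoters. Those of ZNF14 and ZNF416, which rose, are not close to them. Promoter and direction did not match throughout, and a link between them was not tested. At 120 min ZNF493 (75.7% identical to ZNF100) had a log2 change of 0.95, not called, and ZNF91 (76.2%) was not called. ZNF429, at 54.6%, was called lower. The sequences shown run from 250 bases before to 50 bases after the start of the RefSeq gene (GRCh38.p14), 5′ to 3′ on the gene's strand. CCAAT and CTTCCGG are in capitals on either strand (ATTGG and CCGGAAG are their reverse complements). ZNF100 lies on the minus strand at chr19:21767530-21767829, ZNF486 on the plus strand at chr19:20166964-20167263, ZNF85 on the plus strand at chr19:20923001-20923300 and ZNF431 on the plus strand at chr19:21141790-21142089. ZNF14 lies on the minus strand at chr19:19733063-19733362, and ZNF416 of the subtelomeric cluster on the minus strand at chr19:57578862-57579161.
ZNF100: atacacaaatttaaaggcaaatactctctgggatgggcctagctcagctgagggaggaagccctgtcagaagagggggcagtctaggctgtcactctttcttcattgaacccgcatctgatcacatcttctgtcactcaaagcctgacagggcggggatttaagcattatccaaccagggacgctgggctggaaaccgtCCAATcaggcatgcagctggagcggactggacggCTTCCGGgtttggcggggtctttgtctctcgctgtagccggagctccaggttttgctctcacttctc
ZNF486: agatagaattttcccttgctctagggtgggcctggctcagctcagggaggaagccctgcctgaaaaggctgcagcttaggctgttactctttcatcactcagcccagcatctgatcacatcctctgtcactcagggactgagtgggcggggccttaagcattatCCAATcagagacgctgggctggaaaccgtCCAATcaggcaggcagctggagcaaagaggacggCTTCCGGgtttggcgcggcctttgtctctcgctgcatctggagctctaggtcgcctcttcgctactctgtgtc
ZNF85: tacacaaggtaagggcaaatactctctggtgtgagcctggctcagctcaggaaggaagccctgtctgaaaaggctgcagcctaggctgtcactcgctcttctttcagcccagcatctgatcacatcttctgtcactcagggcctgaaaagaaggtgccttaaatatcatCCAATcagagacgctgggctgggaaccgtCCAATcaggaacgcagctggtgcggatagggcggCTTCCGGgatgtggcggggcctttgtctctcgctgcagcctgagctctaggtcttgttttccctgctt
ZNF431: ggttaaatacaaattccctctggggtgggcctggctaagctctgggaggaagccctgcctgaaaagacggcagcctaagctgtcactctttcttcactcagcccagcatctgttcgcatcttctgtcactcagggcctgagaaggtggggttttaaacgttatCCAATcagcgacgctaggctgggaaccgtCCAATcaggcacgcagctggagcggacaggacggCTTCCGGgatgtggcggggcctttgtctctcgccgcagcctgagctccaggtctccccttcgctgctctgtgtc
ZNF14: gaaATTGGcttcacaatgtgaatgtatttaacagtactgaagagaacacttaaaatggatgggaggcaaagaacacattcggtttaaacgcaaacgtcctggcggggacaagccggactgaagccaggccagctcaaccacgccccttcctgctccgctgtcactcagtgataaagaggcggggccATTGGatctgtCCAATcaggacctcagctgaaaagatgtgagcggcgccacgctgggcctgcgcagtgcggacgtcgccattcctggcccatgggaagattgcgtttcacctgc
ZNF416: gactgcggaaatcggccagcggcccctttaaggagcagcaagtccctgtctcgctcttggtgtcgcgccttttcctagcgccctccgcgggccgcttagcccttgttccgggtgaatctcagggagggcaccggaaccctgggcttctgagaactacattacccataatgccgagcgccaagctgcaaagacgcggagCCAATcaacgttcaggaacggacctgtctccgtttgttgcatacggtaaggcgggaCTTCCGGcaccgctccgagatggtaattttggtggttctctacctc

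The ZNF100 promoter was 78.9% identical to that of ZNF486, 81.8% to that of ZNF85 and 78.9% to that of ZNF431, but 47.3% to that of ZNF14 and 48.5% to that of ZNF416. Promoter sequences were matched for 194 of the 234 members. Within the pericentromeric cluster the median identity between pairs of promoters was 75.04%, against 47.7% within the subtelomeric cluster and 47.2% between the clusters. CCAAT and CTTCCGG are 2 of 8 words that were searched. CCAAT, searched on both strands, occurred in all 28 promoters of the pericentromeric cluster and in 66.7% of those of the subtelomeric cluster. It occurred in 51.5% of the members' promoters and in 34.6% of all 35116 promoters in the table. It was about as common as in the pericentromeric cluster from ZNF554 to ZNF77 (5 of 5 promoters) and from ZNF653 to ZNF791 (16 of 17). In the remaining clusters of at least 5 members it was less common. There it ran from 17.4% (ZNF565 to ZNF573) to 50% (2 of 4 promoters, ZNF807 to ZNF792), with 24.1% in the ZNF175 to ZNF331 cluster. CTTCCGG occurred in 75% of the promoters of the pericentromeric cluster, 69.4% of those of the subtelomeric cluster, 46.4% of the members' promoters and 10.3% of all promoters. Matches of the 2 words cannot overlap each other, though CTTCCGG can overlap its own reverse complement, and a match is a description of the letters, not of a bound site.

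Levels differed widely among the members. In RPE-1 DMSO libraries the median member had a mean of 8.60 CPM of converted reads (range 0 to 166 CPM over members). Per kb of gene span, ZNF460 was highest at 7.32 ± 2.39 CPM per kb (SD, n = 42), followed by ZNF121 at 6.89 ± 2.19, ZNF146 at 6.70 ± 2.30, ZNF175 at 6.53 ± 2.79 and ZNF134 at 4.69 ± 2.69 CPM per kb. These SDs run over libraries of different times, series and label lengths, so they are not the spread of replicates. Whether neighbours in the order differ was not tested. ZNF146 encodes a protein made almost only of zinc fingers, without a KRAB domain. In cardiomyocytes the order per kb was ZNF302 at 13.1 ± 2.4, ZNF146 at 12.1 ± 0.7, ZNF134 at 10.1 ± 0.6, ZNF121 at 9.65 ± 0.07 and ZNF260 at 9.24 ± 0.72 CPM per kb (SD, n = 2), and in neurons ZNF134 led with 10.7 ± 0.8 CPM per kb. A converted read was found in every library for 133 members and in no library for 9, among them ZNF93, which encodes a repressor of LINE-1 elements. After the filter on low counts 139 members were tested in every fit, 63 in some and 32 in none. Members overlap one another in 46 cases and some other gene in 155 cases, and many are close paralogs. Reads of such neighbours may have been split, assigned to either or left out, which was not tested. A count of 0, as for ZNF93, is therefore not shown to mean that a gene was silent. Whether counting used strand is not given in the sources used here.

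With 120 min of label, a larger part of the members' reads was new than for most genes. In the long-labelled libraries of the mitosis series, the median member had 60.0% ± 9.3 of its reads converted in dTAGV-1 and 61.2% ± 3.3 in DMSO (SD, n = 3 each). The median over all genes was 28.4% ± 3.3 in dTAGV-1 and 29.0% ± 2.9 in DMSO. The ZNF genes of other chromosomes stood at 49.1% and 50.3%, and the other genes of chromosome 19 at 18.2% and 18.1%, in dTAGV-1 and DMSO. The same order was seen in the release series with 120 min of label, where the median member had 58.9% ± 2.1 in dTAGV-1 and 55.3% ± 3.2 in DMSO, against 35.6% and 35.3% over all genes. In cardiomyocytes the median member had 40.0% in dTAGV-1 and 42.2% in DMSO (all genes 30.1% and 31.1%), and in neurons 28.8% in dTAGV-1 and 32.3% in DMSO (all genes 21.7% and 24.12%). The median member lay above the all-gene median in 92 of 92 libraries and above the ZNF genes of other chromosomes in 79 of 92.

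Single members ranged widely around that median. Of 145 members with at least 100 reads in each of the 3 long-labelled DMSO libraries of the mitosis series, 141 lay above the all-gene median. The highest was ZNF14 with 77.6% ± 5.1 (range 71.9% to 81.8%), followed by ZNF567 with 74.4% ± 4.8 and ZNF441 with 74.3% ± 5.2 (SD, n = 3). The lowest was ZNF428 with 12.2% ± 1.5. ZNF714 had 18.99% ± 2.1, ZNF331, an imprinted gene, had 19.5% ± 2.7, and ZNF724P had 26.7% ± 4.3. ZNF85 of the pericentromeric cluster had 31.9% ± 7.7 in these libraries but 57.2% ± 5.4 in the long-labelled DMSO libraries of the release series. No library without 4sU was analysed here, so conversions that come from unlabelled RNA cannot be separated. With 15 min of label they may weigh more, since the share converted over all genes was as low as 2.44% of a library there. In the 0 min DMSO libraries, for example, the median member had 2.77% ± 0.58 and the median gene 2.49% ± 0.39.

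**Figure D1:**
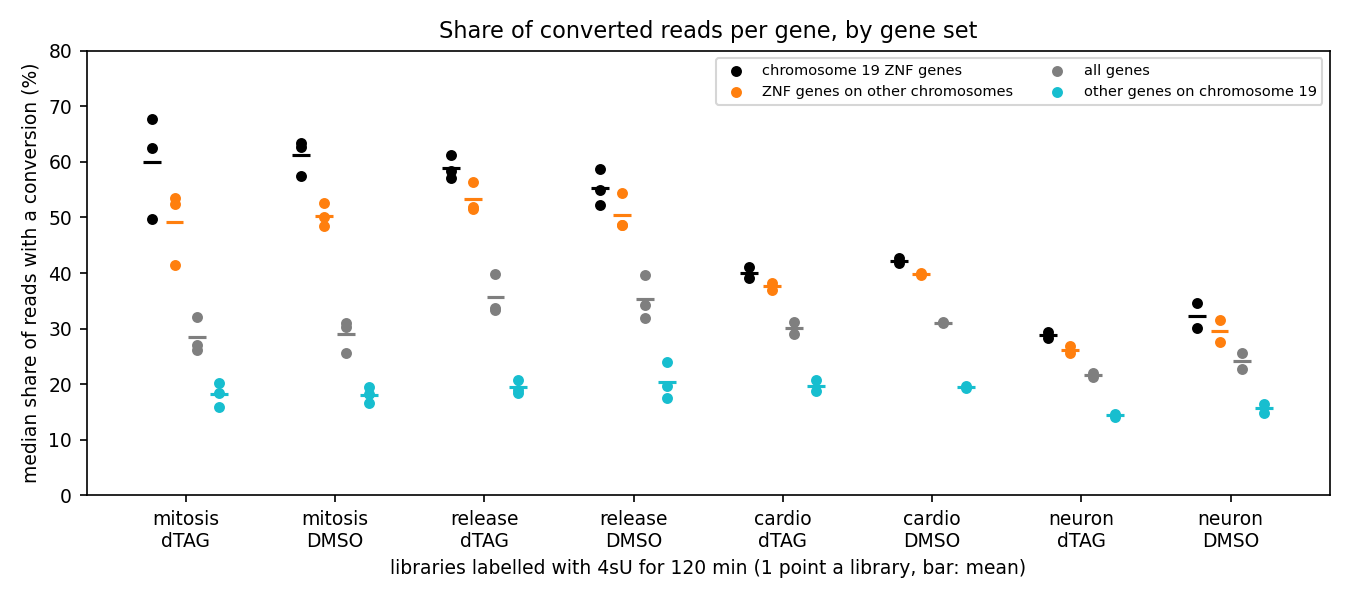
Median share of reads with a conversion (%) over the genes of each set, in libraries labelled with 4sU for 120 min. Each point is a library and each bar the mean of a group, and the chromosome 19 ZNF genes (black) lie above the other sets in every group shown, with 61.2% against 29.0% for all genes in DMSO of the mitosis series.

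After release from mitosis the members did not move as one group. At 30 min against 0 min in DMSO, none of 149 tested members was called by edgeR or by DESeq2 (2 at an unadjusted p under 0.05), and none of all genes was called either (background 0%). At 60 min against 0 min 36 members rose and 4 fell, against a background over all genes tested of 22% higher and 13.9% lower. At 90 min 22 rose and 13 fell (background 14.3% and 9.99%), and at 120 min 26 rose and 20 fell (background 14.6% and 13.2%). These shares are near the background, except that falls at 60 min were 2.68% of the members; that difference was not tested. The members' median log2 change was 0.26, 0.16 and 0.20 at 60, 90 and 120 min, against 0.02, 0.01 and 0.06 over all genes. ZNF genes of other chromosomes gave 60 higher and 17 lower of 200 at 60 min and 32 higher and 24 lower at 120 min. The 3 comparisons share the 0 min libraries. Scaled to all reads in place of converted reads, the members' calls at 60, 90 and 120 min were 87 higher and 0 lower, 57 higher and 8 lower, and 54 higher and 13 lower. That scaling raised the median of all genes by 0.58, 0.48 and 0.36 log2 at these times, so changes given here are relative to the typical gene. The share of all genes called under that scaling is not given here, so those counts have no background beside them.

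In TMM-scaled converted reads the pericentromeric and the subtelomeric cluster moved in opposite directions. At 120 min, 12 of 19 tested members of the pericentromeric cluster were lower and 1 was higher, with a median log2 change of -0.99. Of 26 tested members of the subtelomeric cluster, 11 were higher and 1, ZNF530 (-1.56), was lower, with a median of 0.78. At 60 min the pericentromeric cluster had 2 lower and 2 higher (median -0.39) and the subtelomeric cluster had 12 higher and 0 lower (median 0.74). At 90 min the pericentromeric cluster had 8 lower and 1 higher (median -0.94). Scaled to all reads, at 120 min the pericentromeric cluster had 9 lower and 2 higher (median -0.63) and the subtelomeric cluster 20 higher and 1 lower. At 60 min that scaling turned the median of the pericentromeric cluster to 0.20. Of the other clusters with at least 5 tested members, the ZNF175 to ZNF331 cluster had 3 higher and 3 lower of 24, and the remaining 5 had 0 to 3 called higher and 0 to 2 lower. The counts in the subtelomeric cluster rest on several libraries: without replicate 2, 3 or 4 the 11 higher at 120 min became 6, 5 and 4. For the pericentromeric cluster the 12 lower became 10 to 12 without any one replicate number. With converted reads set relative to all reads of each gene, as given below, that cluster had 0 lower and 5 higher at 120 min. Its fall in converted reads is therefore not shown to be a fall in transcription. Shares called over all genes are not given for that setting or for scaling to all reads.

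**Figure D2:**
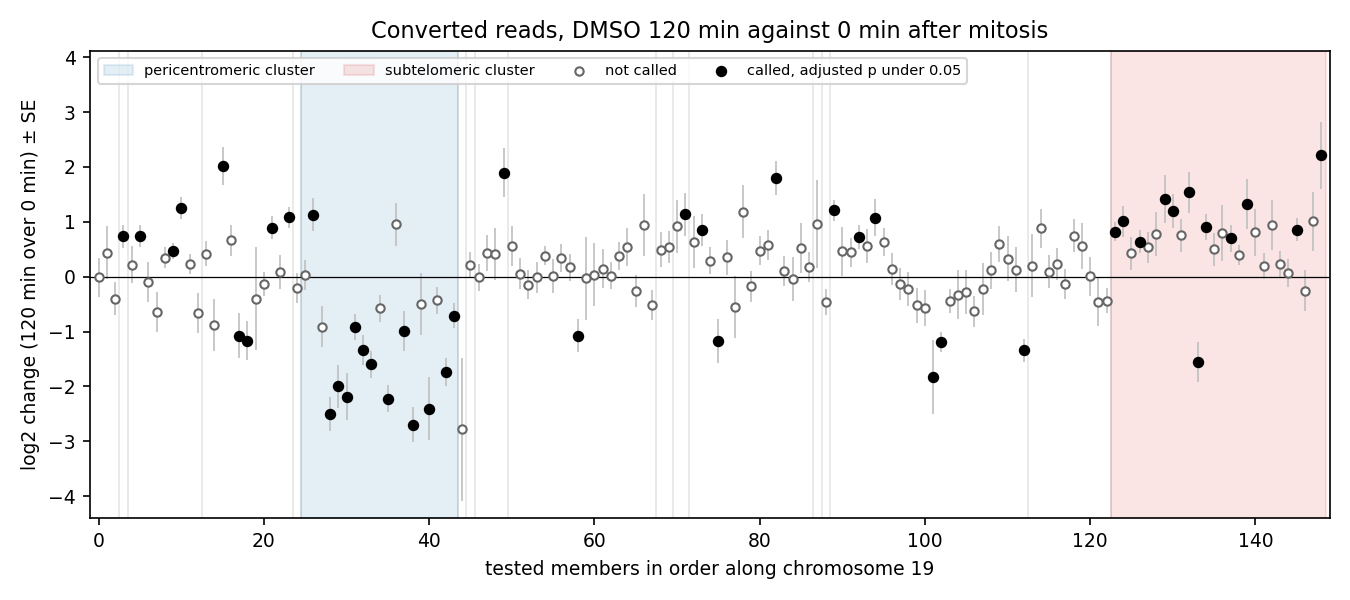
Log2 change of converted reads (DMSO 120 min over 0 min, mitosis series) with its standard error for the 149 tested members in order along chromosome 19; filled points were called. The pericentromeric cluster (blue) holds 12 of the 20 members called lower, and the subtelomeric cluster (red) holds 11 of the 26 called higher.

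ZNF100 showed the fall of the pericentromeric cluster. Its converted reads were 80.4, 49.3 and 80.9 CPM at 0 min, 97.6, 79.8 and 75.9 CPM at 30 min, 60.8, 60.0, 38.4 and 59.8 CPM at 60 min, 46.9, 20.1, 27.7 and 15.7 CPM at 90 min and 15.1, 10.6, 8.30 and 8.44 CPM at 120 min. The libraries at 120 min lay below every library at 0 min (log2 change -2.69 ± 0.33 SE, adjusted p = 1.04e-07). All reads of ZNF100 had means of 9.70 CPM at 120 min and 52.3 CPM at 0 min, and the share of its reads that were converted was 3.60% at 120 min and 3.53% at 0 min. ZNF100 thus had fewer converted reads and fewer reads in all in like proportion.

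ZNF486, a neighbour in the same cluster, had 25.2, 28.2 and 25.5 CPM at 0 min and 6.58, 3.72, 3.32 and 4.22 CPM at 120 min, with no overlap (log2 change -2.50 ± 0.31, adjusted p = 1.88e-07). ZNF738 changed by -2.23 ± 0.25 (adjusted p = 2.31e-08) and ZNF724P by -2.41 ± 0.57 (adjusted p = 0.00156). ZNF85, which encodes a KRAB repressor, had 76.5, 30.2 and 39.1 CPM at 0 min and 19.1, 13.8, 3.32 and 4.22 CPM at 120 min (-2.18 ± 0.43, adjusted p = 0.000232). ZNF431 was already lower at 90 min, with 46.9, 39.3, 23.6 and 32.1 CPM against 101, 79.5 and 88.2 CPM at 0 min (-1.35 ± 0.24, adjusted p = 5.84e-05). All of these arms were apart, and each of these calls was kept without any one replicate number.

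The members were also sorted by promoter. Besides ZNF100 itself, 23 promoters were at least 65% identical to that of ZNF100, all of them in the pericentromeric cluster, with identities of 65.5% to 81.8%; the next highest promoter was at 58.3%. Of the 12 of these 23 genes that were tested, 9 were lower and 0 higher at 120 min, with a median log2 change of -1.47. ZNF493, whose promoter was 75.7% identical, went the other way. It was called higher at 60 min and had a log2 change of 0.95 at 120 min, which was not called. The 4 other tested genes of the cluster with a promoter entry included 1 lower and 1 higher, and the 117 tested members elsewhere with a promoter entry included 6 lower and 24 higher. This grouping was chosen after the values were seen and is a description without a test. These genes are also close paralogs, and the part of reads shared between them was not tested.

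ZNF14, in the pericentromeric cluster with an unrelated promoter, rose. It had 12.6, 7.05 and 7.27 CPM at 0 min, 6.92, 8.61 and 7.59 CPM at 30 min, 12.1, 30.4, 20.99 and 24.8 CPM at 60 min, 20.2, 23.1, 28.9 and 24.7 CPM at 90 min and 17.1, 24.96, 13.3 and 24.7 CPM at 120 min. The libraries at 90 min lay above every library at 0 min (1.35 ± 0.30, adjusted p = 0.000946), though the adjusted p was 0.0532 when replicate 4 was left out. Its share of converted reads was 4.74% at 90 min and 2.32% at 0 min.

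Members that rose were spread over several clusters. ZNF441 (chr19 cluster ZNF653 to ZNF791) had 8.23, 7.05 and 2.73 CPM at 0 min and 34.9, 28.7, 13.3 and 21.7 CPM at 120 min (2.01 ± 0.35, adjusted p = 3.59e-05). ZNF226 changed by 1.80 ± 0.30 (adjusted p = 2.75e-05) and ZNF792 by 1.90 ± 0.44 (adjusted p = 0.00139). In the subtelomeric cluster, ZNF416 had 7.27, 1.01 and 0.909 CPM at 0 min and 11.8, 10.1, 11.6 and 10.8 CPM at 120 min (1.54 ± 0.38, adjusted p = 0.00224). ZNF416 was close to the detection limit at 0 min, with 17 converted reads over the 3 libraries, and without 1 library or replicate number its log2 change ran from 1.10 to 3.50 and its call was lost in 2 of 5 fits (highest adjusted p 0.0665). ZNF324 rose early, with 12.1, 11.3, 15.4 and 7.66 CPM at 60 min against 0.969, 5.03 and 0 CPM at 0 min (2.68 ± 0.57, adjusted p = 0.000457). It too was close to the detection limit at 0 min. Without 1 library or replicate number its log2 change ran from 2.25 to 3.86 and the call was kept (highest adjusted p 0.0304). ZNF552 changed by 1.32 ± 0.46 at 120 min (adjusted p = 0.0283), a call that was lost without any one replicate number (adjusted p 0.0552 to 0.187). ZNF331 moved the other way at 60 min, with 29.3, 26.5, 23.0 and 21.9 CPM against 49.4, 38.3 and 35.5 CPM at 0 min (-0.72 ± 0.19, adjusted p = 0.0037; 0.117 without replicate 2).

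**Figure D3:**
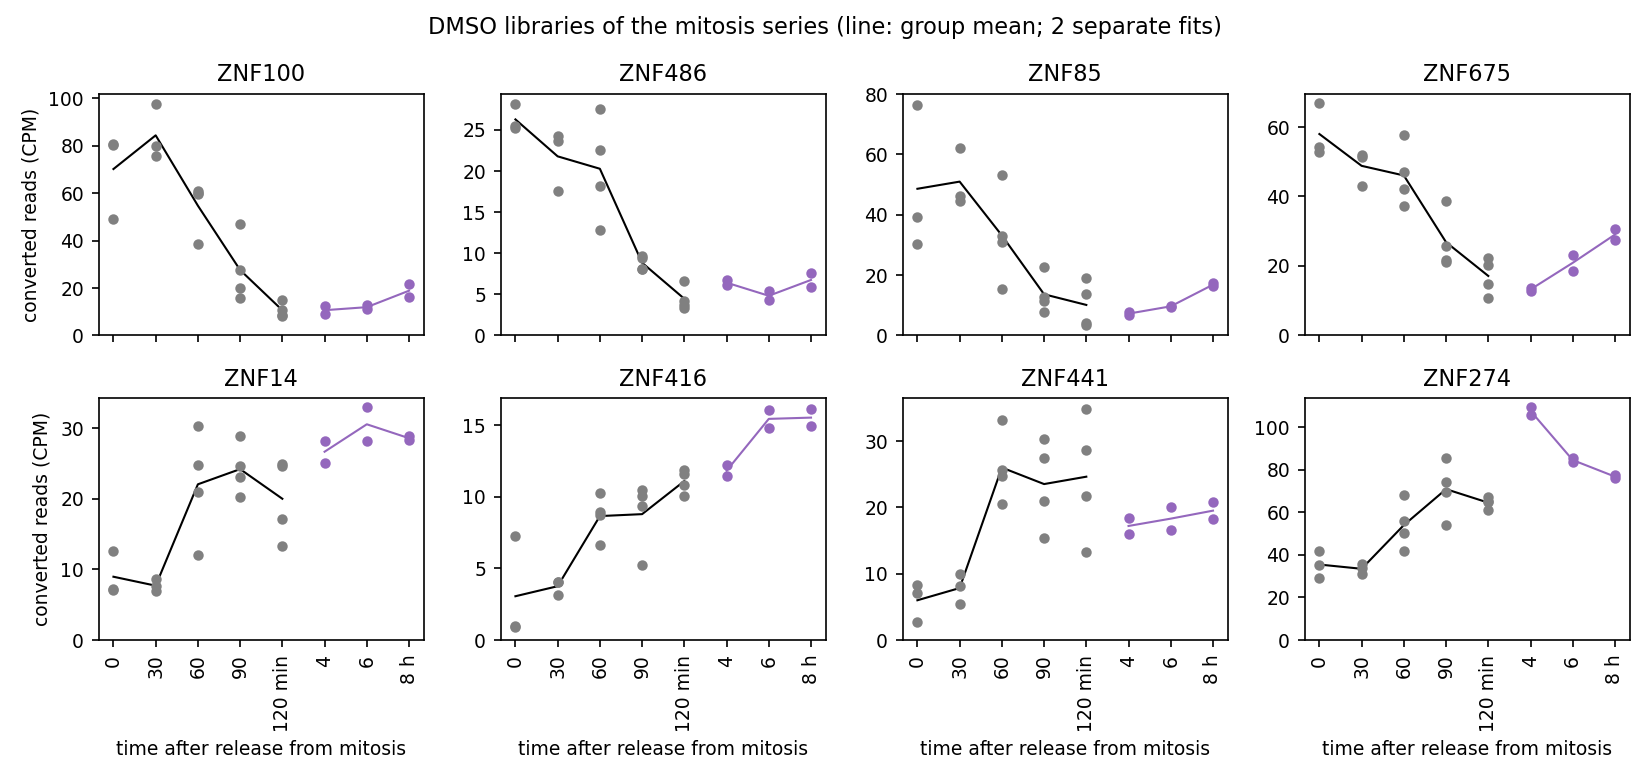
Converted reads (CPM) of 8 members in DMSO libraries of the mitosis series, 0 to 120 min (grey) and 4 to 8 h (purple), with 1 point a library and a line through the group means. ZNF100, ZNF486 and ZNF85 drop by 120 min and ZNF14, ZNF416 and ZNF441 climb; the 2 time ranges come from separate fits.

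All reads gave the same split between the clusters, while converted reads relative to all reads gave only higher calls. With all reads at 120 min, 13 of 36 tested members of the pericentromeric cluster were lower and 0 higher, and 13 of 32 of the subtelomeric cluster were higher and 2 lower. The share of all genes called with all reads is not given here, so these counts have no background beside them. With converted reads set relative to all reads of the same gene, 0 members of the pericentromeric cluster were lower and 5 were higher, and 5 of the subtelomeric cluster were higher. In this setting, which was added after seeing the data, 23 of 149 members were higher and 0 lower, again without a share over all genes beside them. The setting is not scaled to the typical gene, so it keeps library-wide differences in the converted share. For the median gene that share was 2.63% to 3.39% in the 120 min DMSO libraries and 2.19% to 2.94% in the 0 min DMSO libraries. Over the same times the mean of CDK1 in all reads was 24.2 CPM at 120 min and 346 CPM at 0 min in DMSO; its part in these results was not tested.

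At 8 h against 4 h in DMSO 8 of 160 tested members were higher and 1 was lower (background 6.59% higher and 6.73% lower), and the median log2 change was 0.16. ZNF675 of the pericentromeric cluster had 30.7 and 27.4 CPM at 8 h against 12.7 and 13.7 CPM at 4 h (1.14 ± 0.19, adjusted p = 0.000862). ZNF85 had 17.4 and 16.2 CPM at 8 h against 7.82 and 6.62 CPM at 4 h (1.21 ± 0.23, adjusted p = 0.00234). ZNF57 rose by 1.73 ± 0.32 (adjusted p = 0.00186), and ZNF530 by 1.27 ± 0.41 and ZNF823 by 1.14 ± 0.35 with adjusted p of 0.0483 and 0.042. ZNF274, whose protein brings SETDB1 to the 3′ ends of zinc finger genes, was the one member that fell, with 77.3 and 76.1 CPM at 8 h against 110 and 106 CPM at 4 h (-0.49 ± 0.12, adjusted p = 0.0157). Its log2 change was 0.10 when scaled to all reads. The counts depended on the scaling: 97 members were higher and 0 lower when scaled to all reads, and 70 were higher and 0 lower with converted reads set relative to all reads of each gene. The converted share of the median gene was itself 8.54% and 7.07% at 8 h against 5.58% and 5.05% at 4 h in DMSO. No share over all genes is given for these other settings, so the 97 and 70 are not set against a background. The 9 calls became 3 without either DMSO library at 8 h and 5 without replicate 2 of DMSO at 4 h.

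In the release series, 5 of 151 tested members were higher at 120 min than at 30 min in DMSO and 0 lower (background 1.41% and 0.761%). Scaled to all reads 59 were higher and 0 lower, and relative to all reads of each gene 36 were higher and 0 lower. The converted share of the median gene was 5.88% to 7.12% at 120 min against 3.61% to 4.38% at 30 min in these DMSO libraries. No share over all genes stands beside the 59 and 36. ZNF71 had 33.9, 32.8 and 38.9 CPM at 120 min against 9.86, 15.8 and 17.9 CPM at 30 min (1.25 ± 0.21, adjusted p = 0.00347). ZNF473, whose protein takes part in histone mRNA 3′ end processing, changed by 1.01 ± 0.26, ZNF14 by 0.78 ± 0.19, ZNF567 by 0.72 ± 0.19 and ZNF561 by 0.62 ± 0.16. ZNF14 again was among the risers, with 24.6, 27.4 and 31.8 CPM at 120 min against 20.4, 14.8 and 14.8 CPM at 30 min. None of these calls was kept when a replicate number was left out, where the adjusted p of ZNF71 was 0.0623 to 0.103. In the mitosis series 30 members were higher and 20 lower at 120 min than at 30 min (background 12.7% and 10.8%).

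Few members were called with dTAGV-1, and a member that was not called is not shown to be unchanged. No member of 149 was called at 0 min (4 at an unadjusted p under 0.05; background 0%), and none as the mean of 30 to 120 min in the mitosis series (3 at an unadjusted p under 0.05, lowest adjusted p 0.403; background 0.514% higher and 0.753% lower, 1.27% either way). At single times none was called at 30 or 60 min (background 0%), at 90 min (background 0.366%) or at 120 min (background 0.95%). DESeq2 called none in either comparison. The fitted effects over 30 to 120 min ranged from -0.44 to 0.39 log2 over the members, with a median standard error of 0.14. ZNF100 averaged 76.1 ± 22.6 CPM in dTAGV-1 and 70.2 ± 18.1 CPM in DMSO at 0 min (SD, n = 4 and 3). With 120 min of label, ZNF30 was the one call of 172 tested members (background 2.46% either way, 0.41% higher and 2.05% lower), with 2.35, 1.41 and 1.64 CPM in dTAGV-1 against 3.83, 3.74 and 4.36 CPM in DMSO (-1.12 ± 0.26, adjusted p = 0.0365). That call was lost without any one replicate number (adjusted p 0.114 to 0.615).

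At 4 to 8 h 7 of 160 members were higher and 3 lower in dTAGV-1 than in DMSO, against a background of 9.07% higher and 10.7% lower (19.8% either way). The members were thus called less often than the background, a difference that was not tested. Tested on all reads 2 of 195 were higher and 14 lower, scaled to all reads 1 was higher and 2 lower, and without the filter on low counts 2 were higher and 4 lower. The background above is that of TMM-scaled converted reads and does not apply to these counts. ZNF175 was lower at each time: it had 97.8 and 103 CPM in dTAGV-1 against 107 and 158 CPM in DMSO at 4 h, 69.9 and 89.4 CPM against 107 and 152 CPM at 6 h, and 64.2 and 88.5 CPM against 110 and 162 CPM at 8 h. Its mean change was -0.64 ± 0.13 (adjusted p = 0.00178), and the arms did not overlap at any time. ZNF792 was higher at each time, with 12.9 and 13.0 CPM in dTAGV-1 against 8.37 and 5.85 CPM in DMSO at 4 h, 16.4 and 20.0 CPM against 12.1 and 7.61 CPM at 6 h, and 15.8 and 18.5 CPM against 10.3 and 9.19 CPM at 8 h (0.85 ± 0.15, adjusted p = 0.000505). The calls of ZNF175, ZNF792 and ZNF776 (0.41 ± 0.10, adjusted p = 0.00959) were kept without any one library. ZNF584 changed by -0.49 ± 0.16, ZNF180 by -0.34 ± 0.10, ZNF773 by 0.38 ± 0.12, ZNF699 by 0.34 ± 0.11 and ZNF136 by 0.34 ± 0.12. Each of these 5 was lost without at least 4 of the 12 libraries, left out one at a time. Relative to all reads of each gene no member was called.

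At 8 h 7 members were lower and 1 was higher in dTAGV-1 (background 4.62% lower and 3.52% higher, 8.14% either way), and 4 of the 7, ZNF85, ZNF66, ZNF738 and ZNF100, belong to the 18 tested members of the pericentromeric cluster. Relative to all reads of each gene 0 members were called at 8 h. At 4 h no member was called (background 3.51% lower and 1.89% higher). At 6 h ZNF792 was higher (adjusted p = 0.0439) and ZNF829 lower (adjusted p = 0.0436; background 4.71% lower and 2.37% higher, 7.08% either way), and these calls were lost in 9 and 8 of the 12 fits without 1 library. ZNF85 had 10.7 and 8.69 CPM in dTAGV-1 against 7.82 and 6.62 CPM in DMSO at 4 h, 11.5 and 9.58 CPM against 9.54 and 9.75 CPM at 6 h, and 6.74 and 6.67 CPM against 17.4 and 16.2 CPM at 8 h. ZNF85 thus differed at 8 h (-1.32 ± 0.23, adjusted p = 0.00117), where its DMSO level was highest, and this call was kept without any one library. ZNF100 had 12.1 and 8.33 CPM in dTAGV-1 against 21.7 and 16.1 CPM in DMSO at 8 h (-0.89 ± 0.27, adjusted p = 0.0498), ZNF738 differed by -0.90 ± 0.26 and ZNF66 by -1.31 ± 0.36. Those 3 calls were lost in 3 to 7 of the 12 fits without 1 library, and DESeq2 called 2 members in place of 8. Without any one of the 4 libraries at 8 h 2 members were called, and without either dTAGV-1 library at 4 h 5 were. The 4 genes were singled out after their values were seen, the 8 h DMSO libraries are those that give the rise of ZNF85 from 4 h, and whether the drug effect differs between times was not tested.

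In the release series 1 of 151 members was called with dTAGV-1 as the mean of 30 to 120 min (background 0.481% higher and 1.62% lower). ZNF14 was higher, at a mean of 31.2 CPM in dTAGV-1 against 23.9 CPM in DMSO (0.39 ± 0.09, adjusted p = 0.0246), and the call was lost without any one replicate number (adjusted p 0.0802 to 0.437). With 120 min of label none of 172 members was called by edgeR or DESeq2 (0 at an unadjusted p under 0.05; background 0.0724% higher and 0.646% lower). The difference between the drug effects in the mitosis and release series was called for 0 of 157 members by either tool (8 at an unadjusted p under 0.05; background 0.0951%).

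In cardiomyocytes 1 of 197 members was called (background 1.18% higher and 3.65% lower). ZNF613 had 24.2 and 23.6 CPM in dTAGV-1 against 37.2 and 37.0 CPM in DMSO (-0.63 ± 0.12, adjusted p = 0.011), and the adjusted p was 0.0541 without 1 dTAGV-1 library (replicate 2). In neurons 2 members were higher (background 0.574% higher and 1.66% lower). ZNF730 had 223 and 215 CPM in dTAGV-1 against 159 and 162 CPM in DMSO (0.45 ± 0.08, adjusted p = 0.0087). ZNF584, lower with dTAGV-1 at 4 to 8 h in RPE-1, had 36.0 and 48.8 CPM in dTAGV-1 against 24.95 and 22.7 CPM in DMSO (0.84 ± 0.17, adjusted p = 0.0282). The adjusted p went as high as 0.166 for ZNF730 and 0.359 for ZNF584 without 1 library. The difference between the drug effects in neurons and cardiomyocytes was called for 0 of 197 members by either tool (11 at an unadjusted p under 0.05; background 0.595%).

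**Figure D4:**
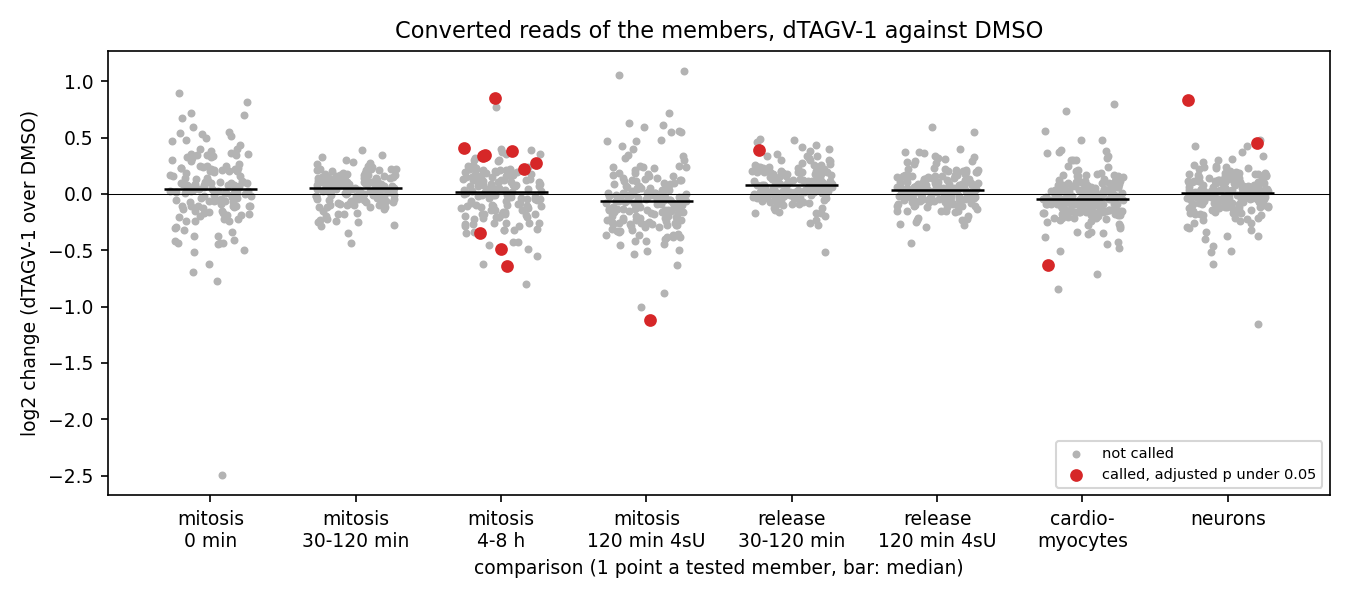
Log2 change of converted reads (dTAGV-1 over DMSO) of each tested member in 8 comparisons, with a bar at the median and called members in red. Calls number 10 at 4 to 8 h, 2 in neurons, 1 in cardiomyocytes, 1 in the release series and 1 with long label in the mitosis series.

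Many members differed between cell types, about as often as other genes in the lower direction and less often in the higher one; neither difference from the background was tested. In DMSO, 58 of 197 tested members were lower in neurons than in cardiomyocytes and 15 were higher (background 26.8% lower and 26.9% higher), and their median log2 difference was -0.15. Relative to all reads of each gene 151 were lower in neurons and 0 higher. That setting keeps library-wide differences in the converted share, whose all-gene median was 24.1% in neurons and 31.1% in cardiomyocytes in DMSO. Its share called over all genes is not given, so the 151 have no background beside them. With TMM scaling, ZNF genes of other chromosomes gave 53 lower and 54 higher of 234. In the ZNF175 to ZNF331 cluster 19 of 35 tested members were lower in neurons and 1 higher, with a median of -0.52; the subtelomeric cluster gave 10 lower and 3 higher of 32 and the pericentromeric cluster 7 lower and 5 higher of 29. The 19 stayed at 18 to 19 without any one library.

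ZNF611 had 32.7 and 35.2 CPM in neurons against 211 and 203 CPM in cardiomyocytes (-2.61 ± 0.09, adjusted p = 9.44e-10). ZNF761 had 24.2 and 21.9 CPM in neurons against 130 and 116 CPM in cardiomyocytes (-2.42 ± 0.11, adjusted p = 7.94e-09). ZNF578 was nearly silent in neurons, with 1.17 and 0.692 CPM against 12.1 and 11.1 CPM in cardiomyocytes (-3.62 ± 0.29, adjusted p = 9.47e-07). All 3 lie in the ZNF175 to ZNF331 cluster, as does ZNF600 (-2.13 ± 0.17). ZNF552 of the subtelomeric cluster changed by -2.38 ± 0.15, with 6.42 and 7.61 CPM in neurons against 36.6 and 36.5 CPM in cardiomyocytes.

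Higher in neurons, ZNF536, which encodes a zinc finger regulator of neuronal differentiation, had 179 and 178 CPM against 9.41 and 5.66 CPM in cardiomyocytes (4.55 ± 0.22, adjusted p = 1.39e-08). ZNF536 lies in a region of its own and spans 485 kb, the longest of the members. ZNF560 differed by 2.60 ± 0.27, ZNF114 by 1.74 ± 0.17 and ZNF491 by 1.33 ± 0.21, but by -0.08, -0.31 and -0.43 relative to all reads of each gene. ZNF730 of the pericentromeric cluster had 159 and 162 CPM in neurons against 79.2 and 77.3 CPM in cardiomyocytes (1.04 ± 0.08, adjusted p = 5.47e-07), and its difference was -0.51 relative to all reads. ZNF730 was thus the one member here called both between cell types and with dTAGV-1 in neurons. The values relative to all reads of each gene keep the lower all-gene share of converted reads in neurons. Scaling to all reads lowered the median of all genes by 0.26 log2 in this comparison. Scaling also moved other medians, by 0.58 log2 for 8 h against 4 h, 0.56 for the release series at 120 min against 30 min and 0.35 for that step in the mitosis series.

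**Figure D5:**
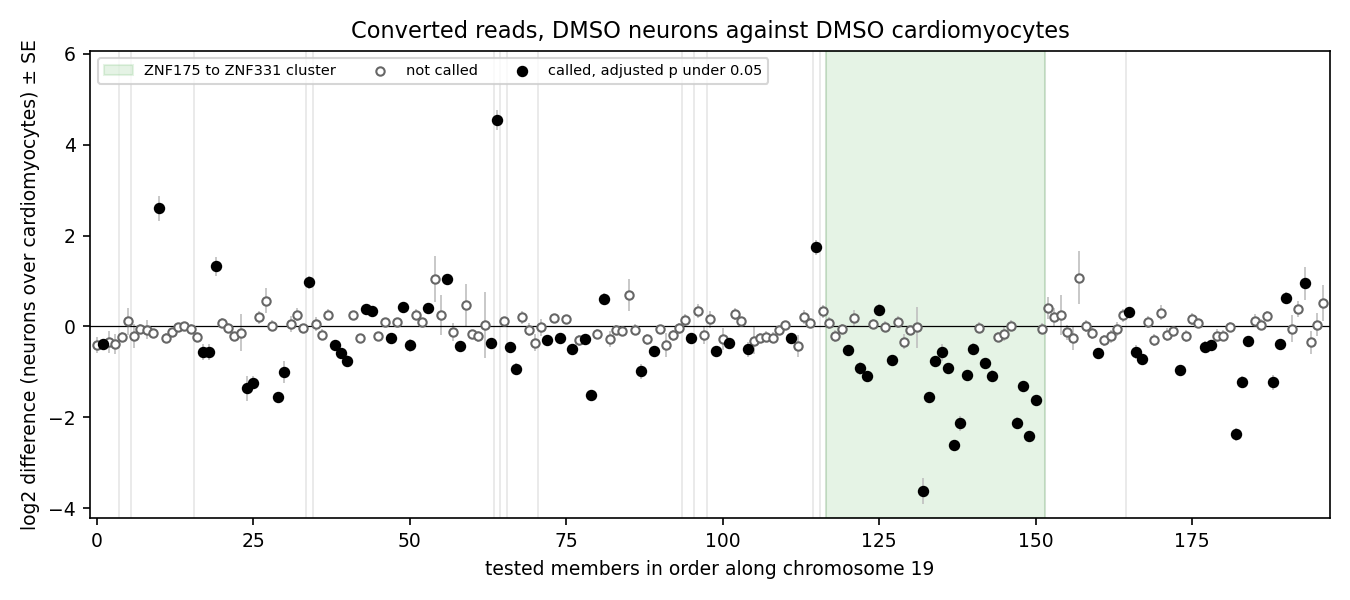
Log2 difference of converted reads (DMSO neurons over DMSO cardiomyocytes) with its standard error for the 197 tested members in order along chromosome 19; filled points were called. The ZNF175 to ZNF331 cluster (green) holds 19 of the 58 members called lower, and ZNF536 stands highest at 4.55.

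The cofactors through which KRAB proteins silence chromatin were listed apart: 24 genes, all tested. At 120 min against 0 min in DMSO 9 were lower and 0 higher (background 13.2% lower and 14.6% higher), among them ATF7IP (-2.02 ± 0.18), which stabilises SETDB1, the methyltransferase EHMT1 (-1.72 ± 0.18), SUV39H2 (-1.51 ± 0.26), UHRF1 (-1.24 ± 0.20) and DNMT1 (-1.13 ± 0.16). TRIM28 itself had a fitted change of 0.09 ± 0.22 and SETDB1 of -0.31 ± 0.18, neither of which passed the test. With dTAGV-1 at 4 to 8 h 4 of the 24 were lower and 0 higher (background 10.7% lower and 9.07% higher), namely UHRF1 (-0.55), SUV39H2 (-0.45), MORC2 (-0.35) and DNMT1 (-0.28). In neurons against cardiomyocytes 11 were higher and 2 lower (background 26.9% higher and 26.8% lower). UHRF1 and DNMT1 are maintenance methylation genes that are also linked to DNA replication, and CDK1 differed over the same 120 min as given above; whether cell cycle state sets these changes was not tested.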

How the data were processed

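SLAM-seq read counts per gene were deposited by the authors as raw counts, per the file headers: all reads of a gene and those with T-to-C conversions. The submitters' processing notes name HISAT, HTSeq, Picard and hg38, without versions. Whether counting used strand is not given in the sources used here.

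A gene missing from a file was set to 0, and 279 genes (chromosome Y, XIST, TSIX) were left out. Converted counts were TMM-scaled and tested with edgeR 4.0.16 (R 4.3.3) by the quasi-likelihood test after filterByExpr (minimum count 10, minimum total 15). Benjamini-Hochberg adjustment was made over all genes tested, separately for each comparison. There were 5 fits, and the difference between the drug effects of the mitosis and release series came from a further fit of both. Errors beside log2 changes are standard errors. Errors beside levels and shares are SDs between libraries. The steps were run on simulated counts with known changes and a fixed dispersion, which may differ from that of these libraries. Of changes of 1 log2, 41.5% were recovered for DMSO 120 min against 0 min in the mitosis series. With dTAGV-1 against DMSO, 80.8% were recovered at 4 to 8 h and 13.6% in cardiomyocytes. Of changes of 2 log2, 90.4% to 98.9% were recovered.

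The members and lists were chosen with earlier results of these data known. Named genes are, per comparison, up to 5 called in each direction by size, with a mean log2 CPM of at least 1 and arms apart or the same direction at each time, and the 5 highest per kb in each cell type. ZNF791, ZNF83, ZNF66, ZNF714 and other members named by value alone fall outside this rule.

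Same-numbered dTAGV-1 and DMSO libraries deviated together at 0, 90 and 120 min, with long label in the mitosis series and at 120 min in the release series (lowest correlation 0.121, 3 or more pairs). Groups of 2 pairs were not counted as paired, though at 30 min after mitosis the correlations were 0.381 to 0.614 and at 6 h, 8 h and in neurons 0.287, 0.249 and 0.230. No pair of libraries was a duplicate. The alternatives were DESeq2 1.42.0, all-read totals, no filter, a replicate block, all reads, and leaving out replicates.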

Additional observations from a re-analysis of the deposited data

Results flagged for a closer look

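In groups of 4 libraries, the members' shares of converted reads and the levels of the named members at 60, 90 and 120 min were checked for a library far from the others, 32 values in all, and 1 was found. In dTAGV-1 at 90 min of the mitosis series, 1 of the 4 libraries had 0.412% of its converted reads in members, while the lowest had 0.356% and the median was 0.360%. Its gap to the nearest library was 0.892 of the range. Chance alone marks about 1 in 20 such groups.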

How the results depend on the processing

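With all-read totals as library sizes, calls were 87 at 60 min (40 in the report), 65 at 90 min (35), 97 at 8 h against 4 h (9), 59 at 120 against 30 min in the release series (5), 3 with dTAGV-1 at 4 to 8 h (10), 0 with long label in the mitosis series (1), 0 in the release series (1) and 1 in neurons (2), and the subtelomeric cluster had 20 higher (11). Set relative to all reads of each gene, a setting added after seeing the data, calls were 86 at 60 min, 23 at 120 min, 19 at 120 against 30 min, 70 at 8 h against 4 h, 36 in the release series over time, 151 between cell types (all lower in neurons) and 0 with dTAGV-1 at 4 to 8 h, at 6 h (2), at 8 h, with long label in the mitosis series, in the release series, in cardiomyocytes and in neurons; the pericentromeric cluster had 0 lower and the subtelomeric cluster 5 higher. That setting keeps library-wide differences in the converted share, so its values are not relative to the typical gene. Shares called over all genes are given for TMM-scaled converted reads only. In the setting relative to all reads these changes reversed: ZNF100 (0.0087), ZNF85 (0.39), ZNF431 (0.28), ZNF331 (0.038), ZNF274 (0.46), ZNF792 at 6 h (-0.12), ZNF584 and ZNF730 with dTAGV-1 in neurons (-0.11 and -0.053), and ZNF560 (-0.078), ZNF114 (-0.31), ZNF491 (-0.43) and ZNF730 (-0.51) between cell types. ZNF274 reversed with all-read totals (0.10) and ZNF136 with all reads (-0.00824). With all reads, calls were 11 at 60 min, 16 with dTAGV-1 at 4 to 8 h, 4 at 8 h (8), 3 in cardiomyocytes, 1 in neurons, and 0 with long label in the mitosis series, over time in the release series and with dTAGV-1 there. DESeq2 called 5 at 8 h against 4 h, 4 with dTAGV-1 at 4 to 8 h, 1 at 6 h, 2 at 8 h, 3 with long label and 2 in the release series (2 also with its size factors). Without the filter, calls were 6 at 4 to 8 h, 1 at 4 h (0), 1 over time and 0 with dTAGV-1 in the release series, 5 in cardiomyocytes and 1 for the neuron against cardiomyocyte interaction. With the replicate block, calls were 14 at 8 h against 4 h, 1 with dTAGV-1 at 4 h, 8 over time and 3 with dTAGV-1 in the release series, and 0 in cardiomyocytes and in neurons; where numbers pair the libraries it changed no other count by over 1.5 times. With cardiomyocyte numbers crossed the block gave 8. Fitted alone, calls were 0 with long label, 0 in cardiomyocytes and 4 in neurons.

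Leaving out replicates gave 16 to 45 calls at 60 min, 20 to 36 at 90 min, 28 to 44 at 120 min, 26 to 50 at 120 against 30 min, 3 to 10 at 8 h against 4 h, 4 to 11 with dTAGV-1 at 4 to 8 h, 0 to 1 at 4 h, 0 to 3 at 6 h, 2 to 8 at 8 h, 0 to 0 with long label, over time and with dTAGV-1 in the release series, 0 to 4 in cardiomyocytes, 0 to 3 in neurons, 50 to 75 between cell types, 0 to 1 for the interaction, 10 to 12 lower in the pericentromeric and 4 to 10 higher in the subtelomeric cluster. The causes were not tested. Of 816 values of 54 gene results, 593 kept direction and call, 209 lost the call and 14 reversed. The shallowest library held 0.419 M converted reads.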
